A study of Mus musculus with 6 samples.

Results

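The circadian clock genes Per1, Per2, Per3, Cry1, Cry2, Clock, Arntl (also called Bmal1), Nr1d1, Dbp and Hlf were followed in RNA from mouse brain synaptosomes, the pinched-off nerve terminals that are isolated from homogenised brain. All non-control probes whose gene name on the array was 1 of these symbols or Bmal1 were taken, which gave 13 probes for 10 genes, of 55681 different non-control probes and 20975 genes with a kept probe. Per1, Cry2 and Dbp had 2 probes each and the other genes 1. By its title the series asks how microRNAs act on FMR1 and bears on FXTAS, a late-onset tremor and ataxia disorder of FMR1 premutation carriers, and its design compares a knock-in with a wild-type group, 3 samples each, with 1 one-colour array per sample. The knock-in samples are named so in their descriptions and in the series design, whereas their genotype field reads knock-out. The knocked-in allele, the strain, the age of the mice, the time of day at which the brains were taken, and whether a sample is 1 animal or a pool are not stated in the labels used here. The labels give an RNA integrity number of 10 throughout, and the amount of RNA labelled is given as 0.2 µg except for knock-in replicate 1, where it is given as 0.0 µg. Since separate animals are not stated, the p-values speak only to the spread among these 6 samples, and that spread may be technical.

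The mammalian clock is a feedback loop of transcription. CLOCK and BMAL1, the product of Arntl, form a pair that binds E-box elements and switches on the Per and Cry genes, whose proteins then inhibit that pair. In a second loop REV-ERB alpha, the product of Nr1d1, represses Arntl at ROR elements, and the PAR-domain factors DBP, HLF and TEF act on D-boxes of clock and output genes. In most tissues the transcripts of Per, Nr1d1 and Dbp rise and fall over the day, with those of Arntl in the opposite phase. Per1 and Per2 are in addition induced by neuronal firing through CREB, which binds the CRE, and Per1 by glucocorticoids.

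These elements were searched for in the stretch from 250 bases before to 50 bases after each gene start, as RefSeq gives it for build GRCm38.p6, on both strands. Of the 10 genes, 9 matched an entry, with 13 such promoters in all, and Per2 did not match. The E-box CACGTG was in 2 of the 13, against 7.15% of the 32851 promoters of all genes. The CRE TGACGTCA was in 1 (1.79% of all promoters), its half-site TGACG, which overlaps it, in 5 (20.8%), the D-box TTATGTAA in 1 (0.938%) and the ROR element core AGGTCA in 3 (16.3%). The windows shown hold E-box, CRE and D-box elements of members and of Ciart, and for Arntl the ROR element core, since these are the letters that clock factors and CREB read. The ROR cores of Clock and Per1 are not shown. The motif is in capitals, each window is read 5′ to 3′ on the strand of the gene, and the entry of Ciart, a repressor of the loop that is measured further on, held the E-box 3 times. A match is a description of the sequence only.
Per1 E-box, chr11:69098771-69098800, plus strand: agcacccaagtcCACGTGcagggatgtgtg
Cry1 E-box, chr10:85185097-85185126, minus strand: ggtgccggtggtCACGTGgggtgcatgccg
Ciart E-box, chr3:95882327-95882356, minus strand: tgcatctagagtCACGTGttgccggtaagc
Ciart E-box nearer the start, chr3:95882269-95882298, minus strand: cgcagggggaggCACGTGcagaaccgcacg
Per3 D-box, chr4:151044852-151044881, minus strand: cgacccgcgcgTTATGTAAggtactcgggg
Per3 D-box nearer the start, chr4:151044805-151044834, minus strand: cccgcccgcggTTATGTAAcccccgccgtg
Hlf CRE, chr11:90390908-90390937, minus strand: ggtgcgggcccTGACGTCActcttgtcagg
Arntl ROR element, chr7:113207530-113207559, plus strand: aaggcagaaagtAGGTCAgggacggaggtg

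Across the 10 genes, Per1, Per2 and Clock read higher on all 3 knock-in arrays than on any wild-type array, and Per3 and Hlf lower. Cry1, Cry2, Arntl, Nr1d1 and Dbp overlapped between the groups. The 5 genes without overlap, each by its brightest probe, compare with 20.3% of 20975 genes over the whole array, 7.87% higher and 12.5% lower. In limma's fit over 29318 kept probes, 0 of the 12 kept clock probes passed the adjusted p of 0.05, with the smallest at 0.440, and 2 probes passed in all (0.00682%). At an unadjusted p under 0.05 there were 4 of the 12, those of Per1, Per2, Per3 and Clock, against 10.4% of all kept probes and 10% of all genes. The median difference of the 10 genes was 0.10 on the log2 scale, against -0.05 over all genes, with 6 genes above 0 and 4 below, where 40.9% of all genes lay above 0. A p that misses the threshold does not show that the groups are alike.

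The arrays lay on 2 slides. All 3 knock-in arrays and wild-type replicate 3 were on slide 1, and wild-type replicates 1 and 2 on slide 2. The 75th percentile of the processed signal was 578 and 580 on slide 2 and 823 to 910 on slide 1, so signals are given both as read by the scanner software and as log2 values relative to the 75th percentile of their own array. Of the spots, 52.9% to 55.7% per array were well above background and 0 were saturated, and the number of arrays limits the precision. All 12 kept clock probes were well above background on 6 of 6 arrays, so none of them passed this filter through 1 group only.

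**Figure D1:**
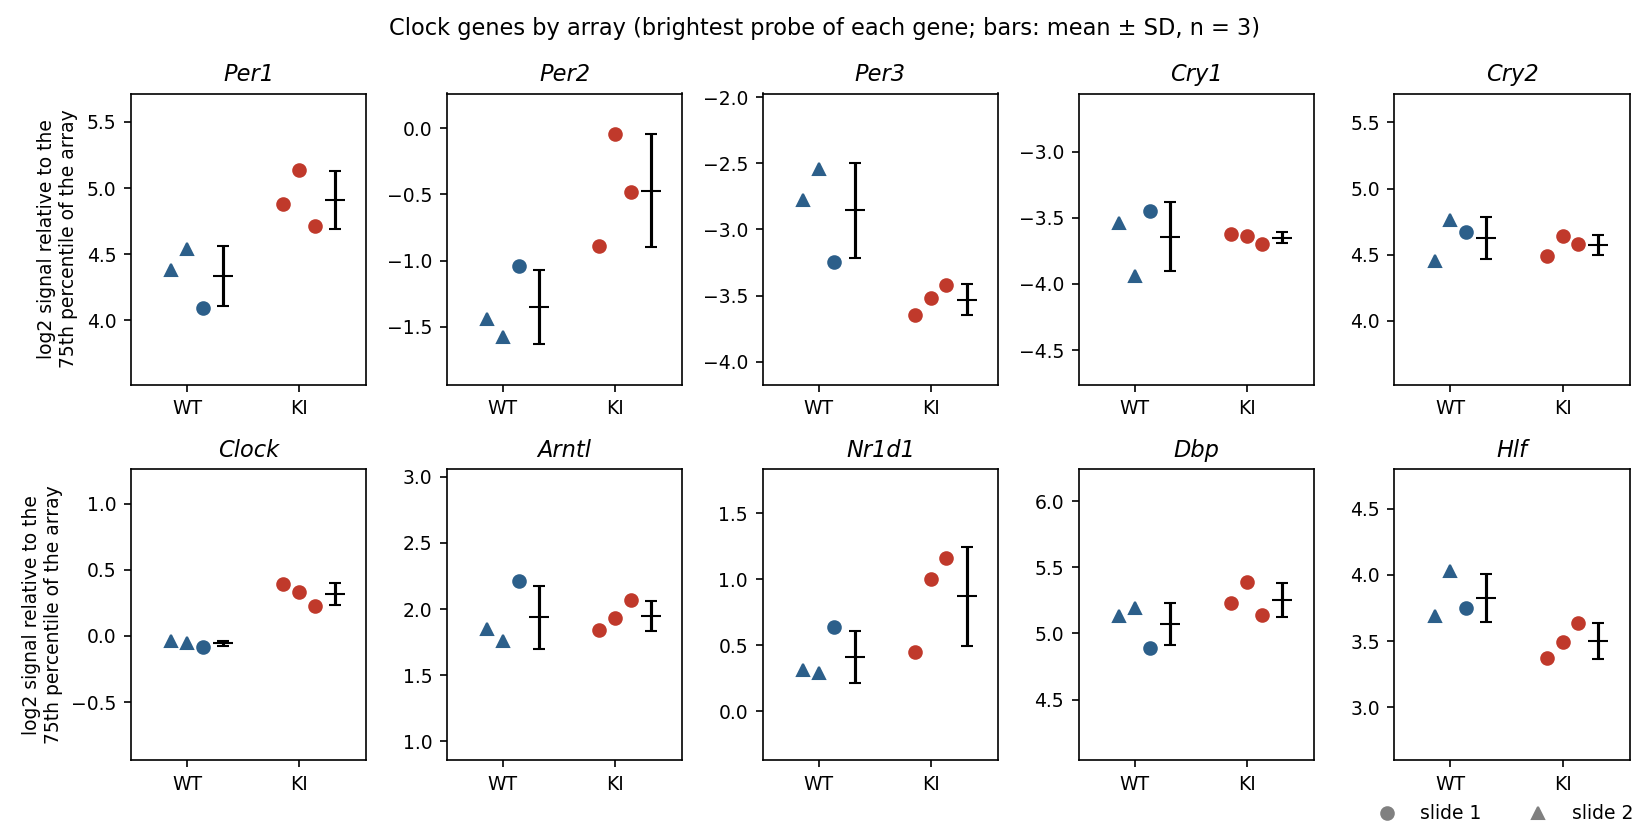
Log2 signal of the brightest probe of each clock gene relative to the 75th percentile of the array (y axis, every panel spans the same 2.2 log2 units) for the wild-type (WT, blue) and knock-in (KI, red) arrays; circles are slide 1, triangles slide 2, and bars the mean ± SD (n = 3). The groups are apart for Per1, Per2, Per3, Clock and Hlf and overlap for the other 5 genes.

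Among the repressors of the loop, Per1 and Per2 read higher in knock-in and Per3 lower. Per1, whose product PER1 inhibits CLOCK and BMAL1, was measured by a probe on chromosome 11 at 68923364 to 68923423 (build mm9, as for all probe positions), which starts at base 4564 of transcript NM_011065. In the order of replicates 1 to 3, as in all such series of values, the processed signal on the knock-in arrays was 26028, 32021 and 23836, and on the wild-type arrays 12019, 13506 and 13961. Relative to the 75th percentile these are log2 values of 4.88, 5.14 and 4.71 against 4.38, 4.54 and 4.09. All 3 knock-in arrays lay above the wild-type ones on either scale, with knock-in replicate 2 highest and wild-type replicate 3 lowest after scaling. The difference was 0.58 (SE 0.17), or 1.49-fold (95% interval 1.12 to 1.98), with limma's adjusted p = 0.447. The exact permutation p was 0.1, below which groups of 3 cannot go. Against wild-type replicate 3 alone, the array of the same slide, it was 0.83 (SE 0.20, limma's adjusted p = 0.584).

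The second Per1 probe, on chromosome 11 at 68919895 to 68919954, was designed to the cDNA AK081813 and not to the RefSeq transcript. It was not well above background on any of the 6 arrays, with processed signals between 4.76 and 11.5, and carries no information on the direction.

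Per2, the second of the PER repressors, was measured on chromosome 1 at 93313046 to 93313105, from base 5290 of NM_011066. The knock-in arrays gave processed signals of 478, 883 and 651 and the wild-type arrays 214, 194 and 400, and the log2 values were -0.89, -0.04 and -0.48 against -1.44, -1.58 and -1.04. Knock-in replicate 2 was highest, and the lowest knock-in array, replicate 1, lay just above the highest wild-type array, replicate 3. The difference of 0.88 (SE 0.25) was the largest of the 10 genes, 1.84-fold with a 95% interval of 1.22 to 2.79 (limma's adjusted p = 0.447, exact permutation p = 0.1). Within slide 1 it came to 0.57 (SE 0.36, limma's adjusted p = 0.694), and with slide as a block the SE was 0.33.

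Per3, the PER gene that the core rhythm can do without, was measured on chromosome 4 at 150379256 to 150379315, from base 4401 of NM_011067. Its processed signals were dim, at 70.2, 79.4 and 84.9 for knock-in and 84.5, 99.9 and 86.4 for wild type, against a lowest well-above-background signal of 17.2 to 23.6 per array. Before scaling, knock-in replicate 3 and wild-type replicate 1 overlapped. After scaling the log2 values were -3.65, -3.52 and -3.42 against -2.78, -2.54 and -3.25, and the groups were apart. The difference was -0.68 (SE 0.20), or 0.626 of wild type (95% interval 0.451 to 0.868, limma's adjusted p = 0.447, exact permutation p = 0.1). Wild-type replicates 1 and 2, both on slide 2, were the 2 highest arrays, and against wild-type replicate 3 alone the difference was -0.28 (SE 0.14, limma's adjusted p = 0.669).

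The PER genes thus had opposite signs on the same arrays. Per2 minus Per3, each centred on the mean of its 6 arrays, was 0.49, 1.19 and 0.66 on the knock-in arrays and -0.94, -1.33 and -0.07 on the wild-type ones, without overlap. The same contrast of Per1 and Per3 was 1.25 higher in knock-in, and that of Per1 and Per2 was -0.31 with overlap. The exact permutation p was 0.1, 0.1 and 0.6 for the 3 contrasts. They are among 6 that were chosen after the values were seen, and none can reach 0.05 with 3 against 3 arrays. Per1 and Per2 alone already lay higher without overlap, and Per3 lower. The contrasts with Per3 therefore could not overlap, their p of 0.1 was fixed, and they add nothing to the single-gene values.

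The cryptochrome repressors overlapped between groups. Cry1, measured on chromosome 10 at 84594731 to 84594790, was dim, with processed signals of 71.7, 73 and 69.8 for knock-in and 49.7, 37.9 and 75 for wild type. The log2 values were -3.62, -3.64 and -3.70 against -3.54, -3.94 and -3.45, so the knock-in arrays lay between the wild-type ones and their SD was 0.04 against 0.26. The difference was -0.01, with a 95% interval of -0.37 to 0.35 (limma's adjusted p = 0.978). Cry2, which encodes the other cryptochrome, had log2 values of 4.49, 4.64 and 4.58 for knock-in and 4.45, 4.76 and 4.67 for wild type on its brighter probe, at 92243807 to 92243866 on chromosome 2. The difference was -0.05 (95% interval -0.35 to 0.24, limma's adjusted p = 0.855). Its dimmer probe, at 92251417 to 92251476, belongs to another transcript record, NM_001113333, and differed by -0.10 (95% interval -0.49 to 0.30), also with overlap. Within slide 1, Cry1 differed by -0.20 (SE 0.11) and the brighter Cry2 probe by -0.10 (SE 0.12).

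Of the activator pair, Clock separated the groups and Arntl did not. Clock, which encodes the histone acetyltransferase partner of BMAL1, was measured on chromosome 5 at 76641377 to 76641436, from base 7243 of NM_007715. The processed signals were 1157, 1146 and 1066 for knock-in and 562, 562 and 781 for wild type, with log2 values of 0.39, 0.33 and 0.23 against -0.04, -0.05 and -0.08. The groups were apart on either scale and each was tight, with an SD of 0.08 and 0.02. The difference was 0.37 (SE 0.10), 1.29-fold with a 95% interval of 1.1 to 1.53, and had the smallest p of the members (unadjusted 0.00821, limma's adjusted p = 0.440, exact permutation p = 0.1). It was 0.39 (SE 0.13) within slide 1, and lay between 0.34 and 0.42 on leaving out any 1 array.

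Arntl, which encodes BMAL1, was measured on chromosome 7 at 120457261 to 120457320. The processed signals were 3160, 3470 and 3808 for knock-in and 2083, 1969 and 3798 for wild type, and the log2 values were 1.84, 1.93 and 2.07 against 1.85, 1.76 and 2.21. Wild-type replicate 3 was highest and wild-type replicate 2 lowest, so the wild-type arrays enclosed the knock-in ones. The difference was 0.01 with a 95% interval of -0.35 to 0.37 (limma's adjusted p = 0.987), and -0.26 within slide 1 (SE 0.14, limma's adjusted p = 0.681).

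Nr1d1, the nuclear receptor that represses Arntl, was measured by a probe whose ends lie 503 bases apart on chromosome 11 (98630526 to 98631028), so that it crosses a splice junction. The processed signals were 1204, 1816 and 2029 for knock-in and 717, 711 and 1281 for wild type, and the log2 values 0.45, 1.00 and 1.16 against 0.31, 0.29 and 0.64. Knock-in replicates 2 and 3 lay above every wild-type array, and knock-in replicate 1 lay below wild-type replicate 3. The difference was 0.45 (SE 0.21), or 1.37-fold with a 95% interval of 0.961 to 1.95 (limma's adjusted p = 0.499, exact permutation p = 0.2). Without knock-in replicate 1 it was 0.66 and without knock-in replicate 3 it was 0.31, and within slide 1 it was 0.23 (SE 0.32, limma's adjusted p = 0.812). Nr1d1 minus Arntl within each array was higher in knock-in by 0.45 without overlap (exact permutation p = 0.1), and Clock minus Arntl by 0.37 with overlap (exact permutation p = 0.2). Both are among the 6 contrasts chosen after the values were seen. Since Arntl differed by 0.01, their sizes are those of Nr1d1 and Clock alone, and Nr1d1 alone overlapped.

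The output factors Dbp and Hlf, which bind the same D-box, had differences of opposite sign. Dbp was bright on both its probes, at 52965461 to 52965520 and 52965322 to 52965381 on chromosome 7. The brighter one read 33218, 38031 and 32156 for knock-in and 20227, 21227 and 24398 for wild type before scaling, where the groups are apart. After scaling its log2 values were 5.23, 5.39 and 5.14 against 5.13, 5.19 and 4.89, and knock-in replicate 3 lay below wild-type replicate 2. The difference was 0.18 (95% interval -0.13 to 0.50, limma's adjusted p = 0.582) on this probe and 0.26 (95% interval -0.09 to 0.61, limma's adjusted p = 0.527) on the other. On the brighter probe it was 0.36 within slide 1 (SE 0.15, limma's adjusted p = 0.632) and 0.09 without wild-type replicate 3. Hlf, measured on chromosome 11 at 90200696 to 90200755, had processed signals of 9131, 10198 and 11309 for knock-in and 7473, 9508 and 11075 for wild type, which overlap. Scaled to the 75th percentile the log2 values were 3.37, 3.49 and 3.64 against 3.69, 4.03 and 3.75, and all knock-in arrays lay below. The difference was -0.33 (SE 0.14), or 0.797 of wild type (limma's adjusted p = 0.480, exact permutation p = 0.1), and it was -0.25 within slide 1 (SE 0.15, limma's adjusted p = 0.690). Without wild-type replicate 2, the highest array, it was -0.22. Dbp minus Hlf was higher in knock-in by 0.51 without overlap (exact permutation p = 0.1). This contrast is also among the 6 chosen after the values were seen, and Hlf alone already lay lower without overlap.

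**Figure D2:**
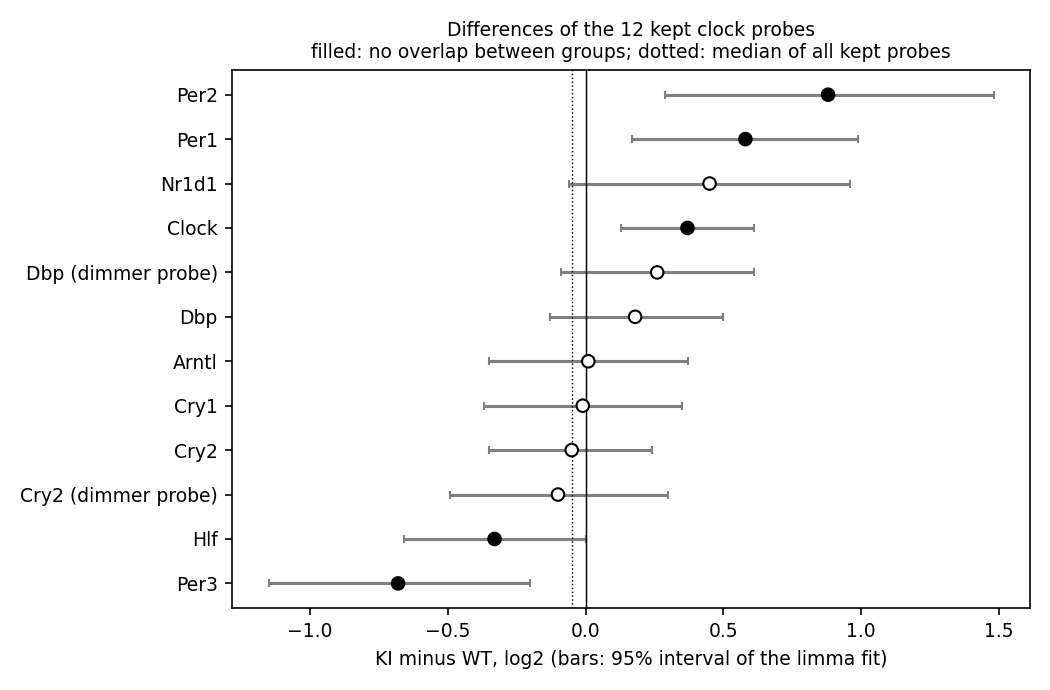
Log2 difference between knock-in and wild type (positive where knock-in is higher) for the 12 kept clock probes, with the 95% interval of limma's fit; filled points mark probes whose groups do not overlap, and the dotted line is the median of all kept probes, -0.05. The differences run from -0.68 for Per3 to 0.88 for Per2, and the intervals of Per1, Per2, Per3 and Clock leave out 0 before adjustment.

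The members also varied to different degrees over the 6 arrays. From the lowest to the highest array, Per2 spanned 1.54 log2 units, Per3 1.12, Per1 1.05 and Nr1d1 0.86, while the median probe of the array spanned 0.57. Cry2 spanned 0.30, Arntl 0.44, Clock 0.46, Cry1 0.48, Dbp 0.50 and Hlf 0.66. Clock thus separated the groups with a range below the median, whereas Nr1d1, with a range above it, did not.

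A further 25 genes of the clock were measured as a list, and 25 of 25 were kept. By the brightest kept probe 12 read higher and 13 lower, with a median difference of -0.02 against -0.05 over all genes, and 0 passed limma's adjusted p of 0.05. At an unadjusted p under 0.05 there were 2 higher and 0 lower, and 2 were higher and 2 lower without overlap. Over all genes 10% had an unadjusted p under 0.05 and 20.3% did not overlap, so neither count of the 25 lay above the share over all genes. Ciart, a repressor of CLOCK and BMAL1, read -2.07, -1.44 and -1.93 for knock-in and -2.54, -2.36 and -2.74 for wild type. This is 1.66-fold (log2 difference 0.73, SE 0.20, limma's adjusted p = 0.440), without overlap, and the difference was 0.39 after normexp background correction. Bhlhe40, a basic helix-loop-helix repressor that also responds to neuronal activity, read 2.00, 2.79 and 2.54 against 1.61, 2.02 and 1.71, a difference of 0.67 (SE 0.23, limma's adjusted p = 0.458), with knock-in replicate 1 just below wild-type replicate 2. Knock-in replicate 2 had the highest value of the 6 arrays in Per1, Per2, Dbp, Ciart and Bhlhe40.

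The other clock genes named here differed less than Ciart and Bhlhe40. Nr1d2, the paralog of Nr1d1, was higher by 0.15 (SE 0.11) without overlap on its brightest probe. Npas2, which can stand in for Clock in the forebrain, differed by -0.25 (SE 0.15) with overlap, and by 0.01 within slide 1. Tef, the third PAR-domain factor, read 6.10, 6.10 and 6.08 for knock-in and 6.28, 6.24 and 6.14 for wild type, a difference of -0.13 (SE 0.10) without overlap, which was -0.05 within slide 1 and 0.03 in the authors' value table. The ROR activators of Arntl gave 0.07 (SE 0.14) for Rora, which was -0.05 within slide 1, and -0.32 (SE 0.14) for Rorb, whose 2 kept probes had opposite signs. Timeless, a homolog of a fly clock gene, differed by -0.29 (SE 0.13) without overlap. Gsk3b, a kinase of several clock proteins, differed by -0.31 (SE 0.16), and by -0.03 within slide 1. The cell-cycle kinase Wee1, an E-box target, differed by -0.29 (SE 0.15), and by -0.46 within slide 1. Over all 6 arrays the groups overlapped for Gsk3b and for Wee1. In limma's fit the adjusted p of these 8 genes lay between 0.484 and 0.841.

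**Figure D3:**
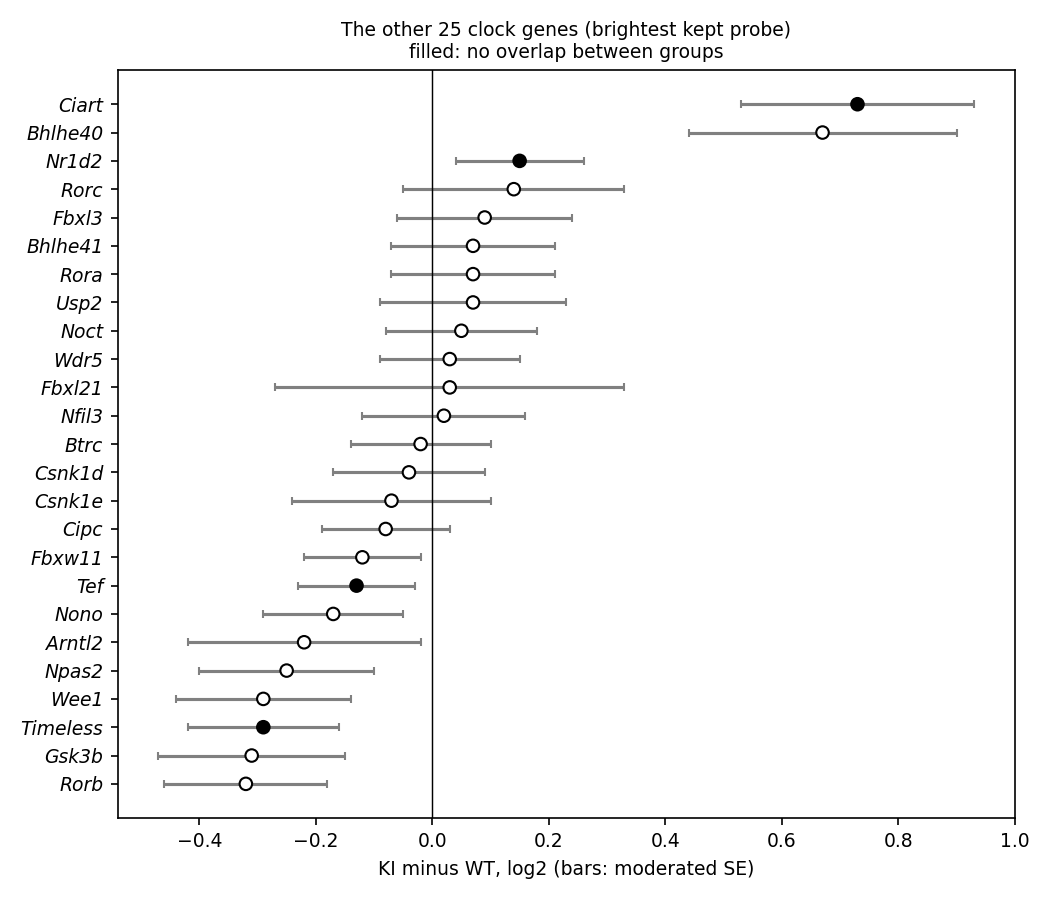
Log2 difference between knock-in and wild type (positive where knock-in is higher) for the other 25 clock genes, by the brightest kept probe, with the moderated SE; filled points mark genes whose groups do not overlap. Ciart and Bhlhe40 stand apart at 0.73 and 0.67, and the other 23 genes lie between -0.32 and 0.15.

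Genes that share inducers with Per1 and Per2 were read as lists, in which no gene passed the adjusted test. The lists were chosen with earlier results of these data known, so their counts are not independent of the values and only describe these genes. Of 9 genes induced by neuronal activity and cAMP, 9 read higher, 6 of them without overlap, with a median difference of 0.82, 0 past limma's adjusted threshold and 8 at an unadjusted p under 0.05. Over all genes 7.87% were higher without overlap, 10% had an unadjusted p under 0.05 in either direction, and the median was -0.05. Arc, which acts in synaptic plasticity, differed by 1.16 (SE 0.28, limma's adjusted p = 0.431), the AP-1 factor Fosb by 0.98 (SE 0.23) and the MAP kinase phosphatase Dusp1 by 0.90 (SE 0.24). Of 7 genes induced by glucocorticoids, 7 read higher, 3 without overlap, with a median of 0.38, 0 past limma's adjusted threshold and 3 at an unadjusted p under 0.05, beside the same shares and median over all genes. In this list the groups overlapped for Klf9, Zbtb16, Cdkn1a and Nfkbia, which differed by 0.09, 0.18, 0.54 and 0.36. All of these were named after their values were seen. Tsc22d3, which encodes GILZ, differed by 0.49 (SE 0.13), the FK506-binding protein gene Fkbp5 by 0.38 (SE 0.11) and the kinase gene Sgk1 by 0.57 (SE 0.18). Relative to the mean of 6 arrays, the activity list read 0.49, 0.63 and 0.07 for knock-in and -0.18, -0.30 and -0.70 for wild type, where Per1 read 0.26, 0.52 and 0.09 against -0.25, -0.08 and -0.54. Both had their lowest value in wild-type replicate 3 and their highest in knock-in replicate 2. Per2 did not have that lowest array: it read 0.03, 0.87 and 0.43 against -0.52, -0.67 and -0.13, lowest in wild-type replicate 2. The glucocorticoid list read 0.03, 0.38 and 0.16 against -0.34, -0.03 and -0.19. The part of activity or stress in the Per values was not tested.

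Markers of brain regions, in lists also chosen with earlier results of these data known, differed among the arrays as well. All 8 striatal markers were kept, and 8 read higher in knock-in by the mean, where 40.9% of all genes lay above 0. Of the 8, 0 were without overlap and 0 had limma's unadjusted p under 0.05, against 20.3% and 10% of all genes. Their summed scaled signal was 243, 96.7 and 46.5 for knock-in and 171, 41.1 and 43.5 for wild type. Knock-in and wild-type replicate 1 were thus the 2 highest arrays, and choroid plexus markers (4 of 5 kept) summed to 1.4, 1.08 and 0.305 against 1.5, 0.307 and 0.256. Leaving out replicate 1 of each group does not even out these markers. Knock-in replicate 2, the highest array for Per1 and Per2, keeps sums of 96.7 and 1.08. Wild-type replicates 2 and 3 have 41.1 and 43.5 for striatum and 0.307 and 0.256 for choroid plexus. The part of these markers in the clock values was not tested. Synaptic neuron markers, 7 of 7 kept, were bright on every array and summed to 415, 460 and 488 against 413, 501 and 496. Of the 8 markers of the suprachiasmatic nucleus, the site of the central clock, Avp, Nms, Six6 and Lhx1 were not kept, and Prok2 was well above background on 3 of 6 arrays. Vip, Rgs16 and Rorb, which other brain regions such as the cortex also express, were well above background on 6 of 6 arrays, and their groups overlapped. Without replicate 1 of each group, a choice made after seeing the data, Per1 differed by 0.61, Per2 by 1.05, Per3 by -0.57, Clock by 0.34, Nr1d1 by 0.61 and Hlf by -0.33. The groups of 2 arrays were then apart for 7 of the 10 genes, against 47.9% of all genes. In bulk RNA, fewer cells of a type and less RNA per cell cannot be told apart.

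**Figure D4:**
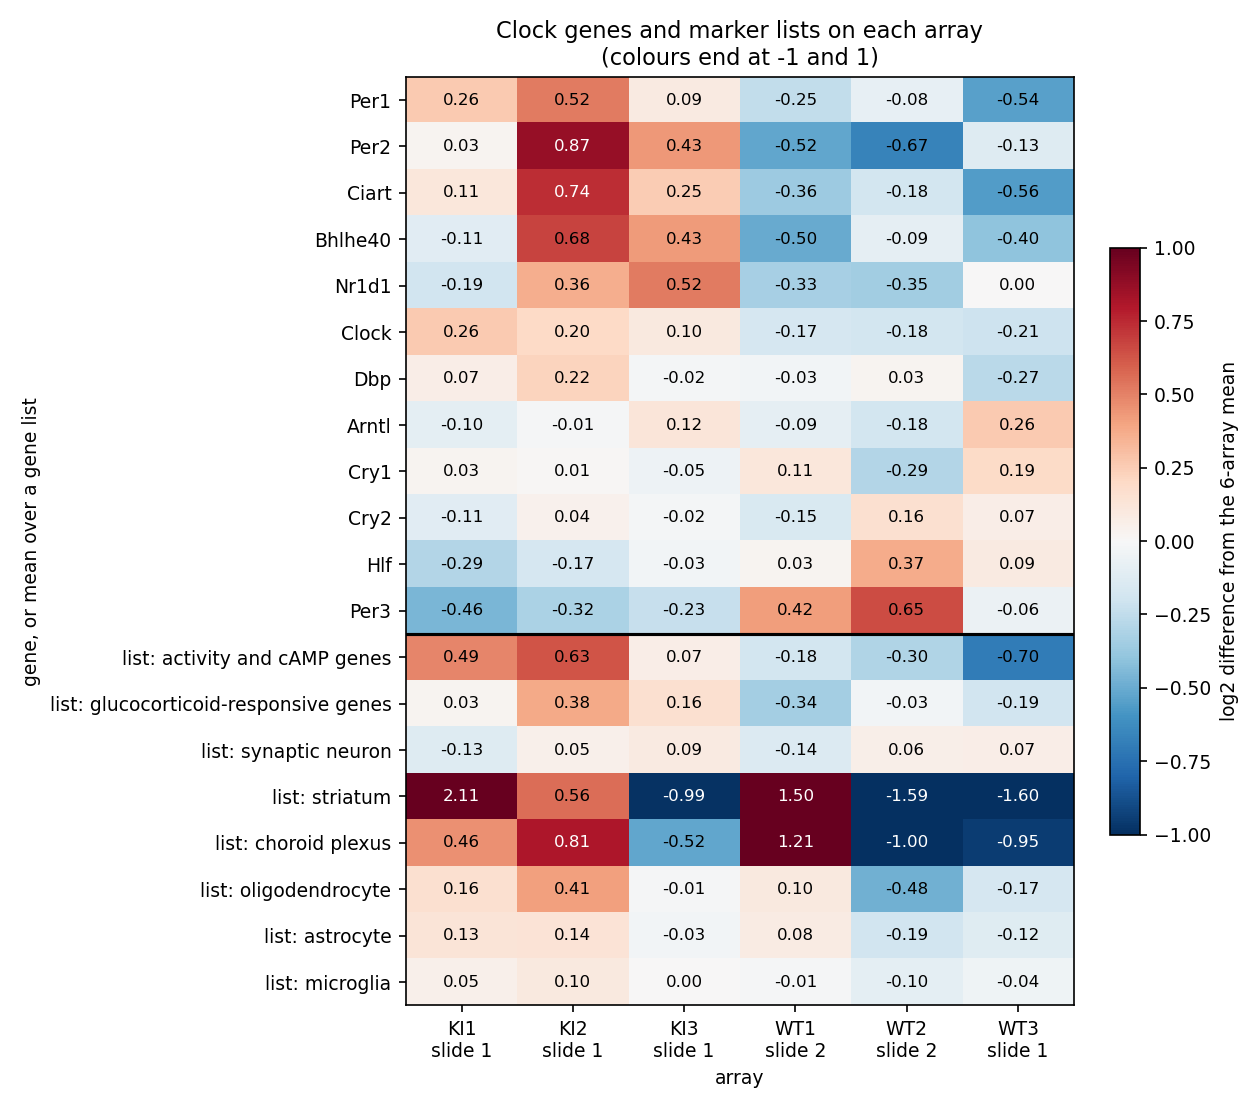
Log2 value on each array relative to the mean of the 6 arrays (colour and printed number) for the clock genes, with Ciart and Bhlhe40, and for the mean of 8 gene lists (below the line). Per1, Per2 and Ciart are positive on the 3 knock-in arrays and negative on the wild-type ones, Per3 is negative on the knock-in arrays and on WT3 and positive on WT1 and WT2, and the striatal list is highest on KI1 and WT1.

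The patterns most like those of the members were found by Pearson correlation over the 6 arrays among 20974 other genes, for the 3 members without overlap that had the smallest p. For Clock these were the splicing factor gene Srsf7 (r = 0.996), Amigo3 (r = 0.995) and Dnaic1 (r = 0.988). For Per2 they were Paqr8 (r = 0.995), Cep78 (r = 0.991) and the isoleucyl-tRNA synthetase gene Iars2 (r = 0.990), and for Per3 the mitochondrially encoded ND4 (r = 0.998), Mmd (r = 0.995) and Nudt19 (r = 0.993). Each value rests on 6 points, and r was over 0.95 for 99 of the 20974 genes with Clock, 69 with Per2 and 283 with Per3. They are a description of the arrays, which share slide and labelling, and no p is given.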

How the data were processed

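Per the labels' protocols, a low-input kit put Cy3 on total RNA, which was read on 6 one-colour arrays. Per the file headers, Agilent Feature Extraction 10.7.3.1 made the deposited intensity values: spot means, background medians, and processed intensities, which are already corrected for background and spatial trend but not scaled between arrays. The authors also deposited a log2 value table of the same arrays, whose normalization the sources used here do not give, and which served as an alternative.

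Processed intensities were taken as log2 and the 75th percentile of the array over its non-control spots was subtracted. Outlier spots were left out unless all spots of a probe were so marked, spots of a probe were averaged, and control spots were dropped. Probes well above background on at least 3 of 6 arrays were kept (29318). Groups were compared by probe with limma 3.58.1 in R 4.3.3 (lmFit, eBayes, two-sided, Benjamini-Hochberg over all kept probes, threshold 0.05), checked on simulated data. Single values got an exact two-sided permutation test. Each gene is given by its brightest kept probe. Differences are knock-in minus wild type, with the moderated SE. Probes were named by accession or symbol through RefSeq names of GRCm38.p6, and Drd1a was taken under its current symbol Drd1. Named genes were all probes of the members, the 6 other clock genes of smallest p plus Npas2, Nr1d2, Tef and Rora, 3 genes of each inducer list, and the 3 most correlated genes, without placeholder names, of 3 members. The members and lists were chosen with earlier results of these data known.

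Alternatives covered slide, replicate number, background correction, normalization, filter, probe choice, moderation, array weights and left-out arrays. Markers of astrocytes, oligodendrocytes, microglia, endothelium and cerebellar granule neurons had median differences of 0.14, 0.33, 0.17, -0.01 and -0.12, with 0 adjusted calls by limma and 1, 1, 2, 1 and 0 genes at an unadjusted p under 0.05, and those of synaptic neurons and the suprachiasmatic nucleus 0.03 and 0.05. The medians of the striatal and choroid plexus markers were larger, at 1.08 and 0.51, with 0 genes at limma's unadjusted p under 0.05.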

Additional observations from a re-analysis of the deposited data

How the results depend on the processing

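Under the 21 alternatives run for each of the 10 clock genes, by limma, Per1, Per2, Clock, Nr1d1 and Dbp stayed above 0 and Per3 and Hlf below 0, and 0 clock probes passed the adjusted p of 0.05 under any of them, with 2 to 6 at an unadjusted p under 0.05. The differences ranged from 0.45 to 0.83 for Per1, 0.57 to 1.09 for Per2, -0.87 to -0.28 for Per3, 0.33 to 0.42 for Clock, 0.23 to 0.66 for Nr1d1, 0.09 to 0.36 for Dbp and -0.40 to -0.22 for Hlf. Small differences turned sign, and the cause was not tested. With slide as a fixed block and with slide 1 alone, which both rest on wild-type replicate 3, Arntl was -0.26, Npas2 0.01 and Rora -0.05. Quantile normalization gave 0.02 for Cry1 and 0.01 for Cry2, and the authors' deposited values gave 0.01 and 0.02 for these and 0.03 for Tef. Array weights gave -0.07 for Arntl. Leaving out 1 array gave -0.16 to 0.08 for Cry1, -0.14 to 0.01 for Cry2 (-0.23 to 0.06 on its dimmer probe), -0.08 to 0.14 for Arntl and -0.01 to 0.17 for Rora. Without replicate 1 of each group, chosen after seeing the data, Cry1 was 0.02.

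The number of all kept probes called, 2 in the fit reported, was 10 with slide as a fixed block, 4 with slide 1 alone and 1 under normexp background correction, 0 each under no dim-probe filter, under a filter asking for all 6 arrays, without replicate 1 of each group, and on the authors' values. Leaving out 1 array gave 0 to 5. Beside each 0, limma's unadjusted p was under 0.05 for 1991 to 4783 probes. Same-numbered samples correlated at 0.36, -0.04 and 0.22 in their deviations from the group means, and differently numbered ones at -0.35 to 0.13. These values do not settle whether the samples are paired. The numbers were not taken as pairs because nothing in the labels says that they pair animals. With the replicate block 0 probes were called (3047 at an unadjusted p under 0.05), and Per1 differed by 0.58 with an SE of 0.10 (limma's adjusted p = 0.47). The consensus correlation of slide as a random block was 0.02. With 3 arrays a group, and Per3 and Cry1 near the dim end, small differences cannot be resolved.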
